A study of Mus musculus with 6 samples.

Results

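Chemokines and their receptors made up 60 of the 43346 genes in the deposited count table. They were taken by name, as every Ccl, Cxcl, Ccr and Cxcr gene together with Cx3cl1, Cx3cr1, Xcl1, Xcr1 and the atypical receptors Ackr1 to Ackr4, and comprised 38 ligands and 22 receptors. RNA was sequenced from 6 liver tumours of mice that overexpress the sulfatase SULF2, a strain labelled Sulf2-TTR. All tumours had been induced with diethylnitrosamine (DEN), a liver carcinogen, so both genotypes carried the overexpression and the carcinogen exposure. Of these tumours 3 had wild-type Gli1 (WT) and 3 had Gli1 knocked out (KO). The comparison asks what differed in tumours that lack GLI1, a transcription factor of the Hedgehog pathway. Age, the cells that overexpress SULF2 and the deleted part of Gli1 are not named in the labels. Nor is it given that the replicates came from separate mice, so p-values measure only the spread between these samples.

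Chemokines are small secreted proteins that form gradients on heparan sulfate and draw leukocytes through receptors of the G protein-coupled class. CXC ligands that bind Cxcr2 recruit neutrophils, those that bind Cxcr3 recruit activated T cells, and many CC ligands recruit monocytes. In the liver they are made by hepatocytes, macrophages, endothelial cells and stellate cells, while most of the receptors sit on incoming leukocytes. Atypical receptors bind chemokines without G protein signalling and remove them.

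Libraries held 75205624 to 132979502 reads in genes, and the hepatocyte gene Alb had 115000 to 167000 CPM (read counts scaled to library size, here and below with sizes adjusted by the trimmed mean of M-values). Sulf2 varied widely, with 164 CPM in KO replicate 1, 76.4 in WT replicate 1 and 2.63 to 11.6 elsewhere, and the labels do not name the species of the transgene. Gli1 had 7 to 20 reads in the WT libraries and 3 to 4 in the KO libraries. On the first principal component of all genes (42.7% of variance) WT replicate 3 lay at 80.9 and KO replicate 1 at 65.2, apart from the other libraries at -67.9 to -6.95. For many members that rest on these libraries, fold changes are also given below without them, but not for marker and pathway genes. In bulk tissue, fewer cells of a type and less RNA per cell cannot be told apart.

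Expression was spread very unevenly over the family. No read was counted for Ccl21b, Ccl26 or Ccl27b in any library, which allows up to 3 reads per library, or 0.0226 to 0.0396 CPM. A further 12 members did not pass edgeR's filter on low counts, leaving 45 of 60. On the deposited RPKM scale, which divides by a gene length and so allows levels of different genes to be compared, Cxcl1 had the highest mean level (56.0), followed by Ccl9 (30.2), Cxcl12 (20.9), Ackr4 (10.7) and Ccl6 (4.63). The ranges over the libraries of Cxcl1 (8.95 to 117), Ccl9 (15.0 to 51.7) and Cxcl12 (9.39 to 35.7) overlapped, so their order was not the same in every tumour. Part of the Ackr4 reads may belong to a gene that overlaps it, as given below.

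Cxcl1 ranked first among the members in each of the WT libraries, where it made up 55.3, 53.4 and 40.3% of the summed RPKM of the family in replicates 1, 2 and 3. In the KO libraries it ranked 2, 4 and 4, and made up 21.0, 9.76 and 8.40%. Ccl9, a ligand of Ccr1 made by myeloid cells, ranked first in every KO library, with 25.2, 36.8 and 26.9% of the summed RPKM. Its shares in WT were 9.07, 8.22 and 25%, of a sum that includes Cxcl1. The RPKM of Ccl9 itself was 15.0, 18.0 and 51.7 in WT against 30.8, 37.2 and 28.7 in KO, with overlap. On the RPKM scale the family's most abundant transcript therefore differed between the genotypes in these libraries. That order depends on the deposited gene length, which was 953 for Cxcl1, 3045 for Ccl9 and 8176 for Cxcl12. In CPM, which do not divide by length, Cxcl12 was above Cxcl1 in WT replicates 1 and 2 (259 and 345 against 113 and 132). It was slightly below Cxcl1 in WT replicate 3 (93.6 against 97.0), and above Ccl9 in every KO library.

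**Figure D1:**
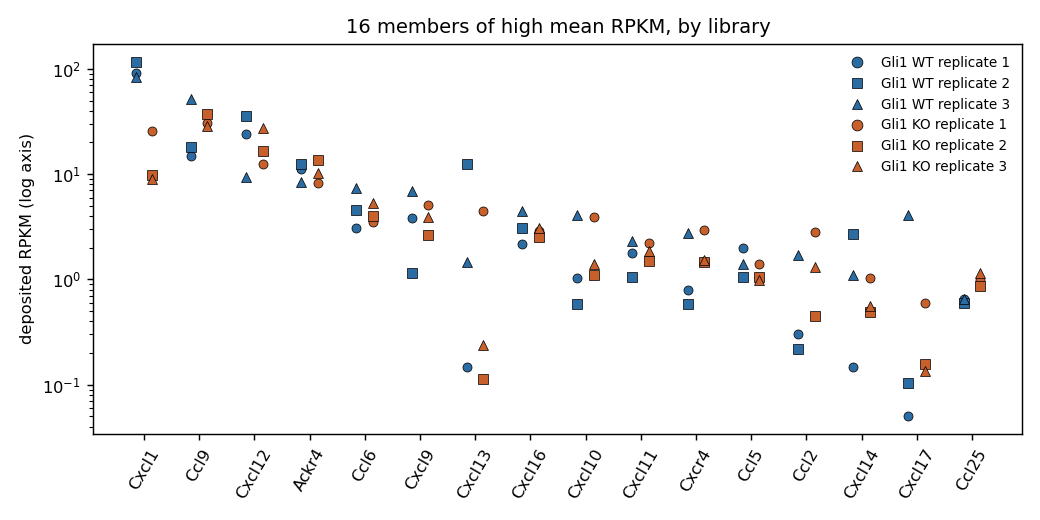
Deposited RPKM (log axis) of 16 members with a high mean level, with 1 point per library, WT libraries on the left of each gene and KO libraries on the right. Cxcl1 lies at 83.3 to 117 in WT and 8.95 to 25.7 in KO, while Ccl9, Cxcl12 and most other genes overlap between the genotypes.

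No member passed a false discovery rate (FDR) of 0.05 in edgeR's quasi-likelihood test, and neither did any of the 18359 genes tested (percent called 0). At an unadjusted edgeR p under 0.05 there were 3 members, namely Cxcl1, Cxcr6 and Ackr2, or 6.67% of the 45 against 3.62% of all genes. DESeq2 called 1 member, Cxcl1, against 0.317% of the genes it adjusted. All 3 KO libraries lay below all 3 WT libraries for 5 members, Cxcl1, Cxcr6, Cxcr3, Ccr6 and Ackr2 (11.1%, against 3.96% of all genes), and above them for 1, Ccl25 (2.22% against 4.15%). Over both directions 8.11% of all genes had no overlap. Of the 45, 30 had a lower fitted level in KO (66.7% against 51.8% of all genes), with a median log2 fold change (KO minus WT) of -0.31 against -0.01 over all genes. Without WT replicate 3 only 20 members were lower and the median was 0.15, so that this lean of the family rested on that tumour. Without both WT replicate 3 and KO replicate 1, 20 of the 41 members tested were lower and 21 higher, with a median of 0.04.

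**Figure D2:**
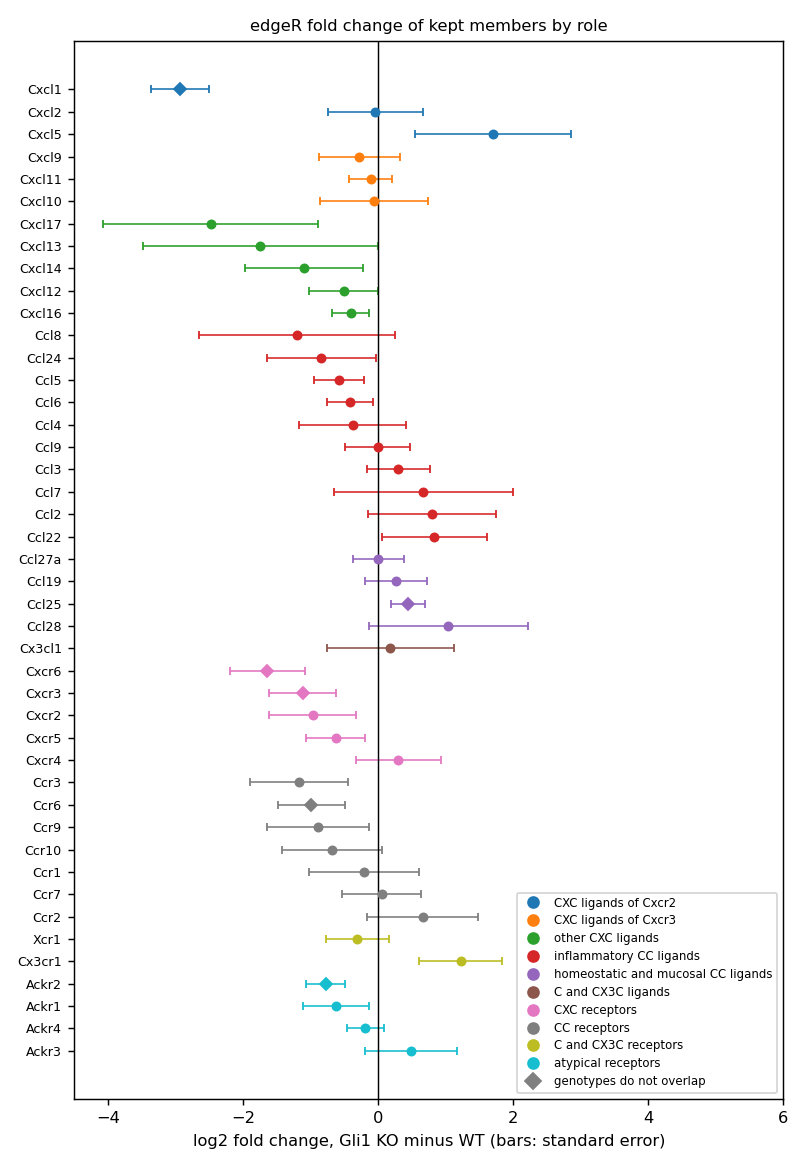
Log2 fold change of 44 of the 45 tested members, Gli1 KO minus WT, from edgeR with 3 libraries per genotype, coloured by role, with bars of 1 standard error and diamonds where the genotypes do not overlap. Cxcl1 at -2.94 is the farthest from 0 and has a shorter bar than most members with large values, such as Cxcl17 and Cxcl13.

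Cxcl1 (ENSMUSG00000029380, plus strand of chromosome 5, 90891241 to 90893115 in GRCm38), a chemoattractant for neutrophils, was the member with the clearest difference. It had 9054, 10000 and 8627 reads in WT replicates 1, 2 and 3 and 2645, 1407 and 740 in the KO replicates. The corresponding levels were 114 ± 17.6 CPM in WT against 14.9 ± 8.91 in KO (SD, n = 3 per group), a ratio of means of 7.67. WT libraries were close to each other and the lowest of them was well above KO replicate 1, the highest of the KO libraries. The log2 fold change was -2.94 ± 0.43 (SE), the seventh smallest p of all genes tested, and it did not pass edgeR's adjustment (FDR 0.797) but passed that of DESeq2 (adjusted p 1.62e-07). Leaving out any single library kept it between -3.54 and -2.68, and it was -3.65 (edgeR FDR 0.18) without both WT replicate 3 and KO replicate 1. Numbers in the sample descriptions fall in a low range for WT replicate 1 and KO replicates 1 and 3 and in a high range for the others, and with that split as a covariate the value was -3.08 (edgeR FDR 1).

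The genes of the other Cxcr2 ligands among the members lie in the same stretch of chromosome 5 as Cxcl1. They were counted at far lower levels. Their upstream sequences are shown because Cxcl1, Cxcl2 and Cxcl3 carry the same match to a motif there and yet differed widely in level. The 250 bases before the RefSeq start (GRCm38.p6, plus strand of chromosome 5) span 90890995 to 90891244 for Cxcl1, 90903649 to 90903898 for Cxcl2 and 90785851 to 90786100 for Cxcl3, and capitals mark matches to the NF-kB consensus.
Cxcl1: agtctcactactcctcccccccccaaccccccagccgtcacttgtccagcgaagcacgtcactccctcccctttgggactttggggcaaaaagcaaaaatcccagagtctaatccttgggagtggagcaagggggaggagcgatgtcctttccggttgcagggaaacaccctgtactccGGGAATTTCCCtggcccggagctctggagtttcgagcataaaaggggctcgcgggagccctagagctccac
Cxcl2: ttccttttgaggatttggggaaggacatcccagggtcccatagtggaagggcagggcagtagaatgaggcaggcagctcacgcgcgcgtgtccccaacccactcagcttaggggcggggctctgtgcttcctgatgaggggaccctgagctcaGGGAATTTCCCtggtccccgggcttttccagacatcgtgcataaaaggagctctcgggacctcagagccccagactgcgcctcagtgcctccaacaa
Cxcl3: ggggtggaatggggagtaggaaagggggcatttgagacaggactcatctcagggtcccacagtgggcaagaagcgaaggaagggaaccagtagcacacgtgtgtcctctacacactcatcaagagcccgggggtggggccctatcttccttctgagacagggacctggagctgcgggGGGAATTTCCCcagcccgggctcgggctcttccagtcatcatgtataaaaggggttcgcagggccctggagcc
In each gene a match on one strand overlaps one on the other, and together they form the run GGGAATTTCCC. It begins 71 bases before the start of Cxcl1, 97 before that of Cxcl2 and 73 before that of Cxcl3. This run is present in 14 of 32851 promoters of the same length (0.0426%), of which Cxcl1, Cxcl2 and Cxcl3 were the members.

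RefSeq upstream sequences matched 45 of the 60 members by symbol, and 3 motifs were searched on both strands in the 250 bases before the start. The NF-kB consensus matched in 9 of those 45 members (20.0%) against 3.90% of all promoters, namely Cxcl1, Cxcl2, Cxcl3, Cxcl10, Ccl9, Ccl20, Ccr3, Ccr6 and Ackr2. The STAT motif TTCNNNGAA matched in Ccl17, Cxcl14 and Ccr6 (6.67% against 7.02%). The GLI motif GACCACCCA matched in 0 members and in 0.225% of all promoters. A member with several upstream sequences counted as matched if any of them matched, whereas the share over all promoters counts each sequence. These are letter matches in a short window and do not show binding.

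Cxcl2, a neutrophil attractant like Cxcl1, had 10, 47 and 87 reads in WT replicates 1, 2 and 3 and 80, 60 and 39 in the KO replicates. WT replicate 1 was lowest and WT replicate 3 highest, so the KO libraries fell inside the WT range, with a log2 fold change of -0.04 ± 0.70. Its deposited RPKM averaged 0.476, against 56.0 for Cxcl1. Cxcl5, an attractant made mainly by epithelial cells, had 2, 0 and 16 reads in WT and 44, 14 and 14 in KO, where KO replicate 1 was highest and the groups overlapped (1.70 ± 1.15; 0.96 without KO replicate 1 and 4.04 without WT replicate 3). Cxcl3 had 0, 32 and 5 reads in WT and 14, 4 and 4 in KO, and Cxcl15 was counted only in KO replicates 1 and 3, with 4 reads each. Neither passed edgeR's filter on low counts, and DESeq2 gave unadjusted p of 0.422 for Cxcl3 and 0.265 for Cxcl15. The genotypes overlapped for each of these ligands.

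Cxcr2, the receptor of this group on neutrophils, had 0.639, 0.528 and 2.32 CPM in WT replicates 1, 2 and 3 against 0.579, 0.436 and 0.772 in KO. Only WT replicate 3 stood out, and the log2 fold change of -0.97 ± 0.64 was 0.03 without it. Cxcr1 had 0 to 14 reads per library. The 12 neutrophil markers summed to 10.5, 16.6 and 52.4 CPM in WT against 11.4, 5.2 and 8.02 in KO, and all 11 that could be tested had lower fitted levels in KO (3 without overlap, 0 past edgeR's FDR, 1 called by DESeq2). The called marker was Retnlg, a resistin-like gene of neutrophils, with 1.55, 1.63 and 2.62 CPM in WT against 0.304, 0.324 and 0.29 in KO. Its log2 fold change was -2.65 ± 0.36 (edgeR FDR 0.739, DESeq2 adjusted p 4.5e-08) and, as for Cxcl1, every KO library was below every WT library. Mmp8, a neutrophil collagenase (-2.55 ± 0.77), and S100a8, a calcium-binding protein of neutrophils and monocytes (-2.16 ± 0.75), were the others without overlap. Among the defining markers, Mpo was at 0 in WT replicate 1 and KO replicate 3, and Ly6g had at most 0.202 CPM. The part of these cells in the Cxcl1 values was not tested.

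The ratio of Cxcl1 to other members within a library was set out after their values were seen. The log2 ratio of Cxcl1 to Cxcl2 was 9.82, 7.73 and 6.63 in WT replicates 1, 2 and 3 and 5.05, 4.55 and 4.25 in KO. Against Ccl9 the log2 ratio was 0.93, 1.03 and -0.99 in WT and -1.94, -3.59 and -3.36 in KO, and against Cxcl12 it was -1.19, -1.38 and 0.05 in WT and -2.08, -3.84 and -4.70 in KO. These 3 ratios were lower in every KO than in every WT library. An exact two-sided permutation test gave p = 0.1 for each, the smallest value that 3 against 3 libraries allow (0.133 adjusted over the 4 ratios examined). Against Cxcr2 the KO minus WT difference was -2.42 and the groups overlapped (exact permutation p = 0.2, adjusted 0.2).

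**Figure D3:**
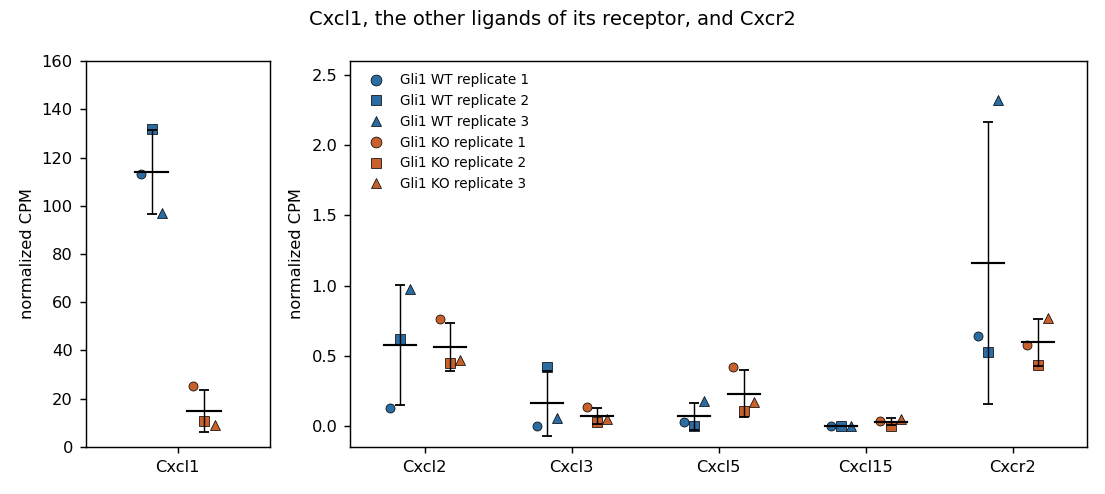
Normalized CPM of Cxcl1 (left), and of Cxcr2 and its other ligands among the members (right, smaller scale). Each library is 1 point, and bars give the mean and SD of 3 libraries per genotype. Cxcl1 is at 97.0 to 132 CPM in WT against 8.93 to 25.1 in KO. The other ligands drawn are all under 1 CPM and overlap between the genotypes.

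Ligands of Cxcr3, which interferon induces and which attract activated T cells, did not differ by genotype beyond their spread. Cxcl9 had 14.7, 3.92 and 24.7 CPM in WT replicates 1, 2 and 3 against 15.0, 8.63 and 12 in KO, so the KO libraries lay inside the WT range (log2 fold change -0.28 ± 0.60). Cxcl10 had 2.04, 1.06 and 7.58 CPM in WT against 6.13, 1.88 and 2.21 in KO (-0.06 ± 0.80), high in the libraries that stand apart. Cxcl11 varied least, from 4.74 to 10.8 CPM (-0.11 ± 0.32). All 3 fitted values were below 0 and all were above 0 without WT replicate 3 (1.14 for Cxcl10). The spans of Cxcl10 and Cxcl11 lie wholly within that of Art3 on the opposite strand, and no source used here says whether counting used strand. Gm2673, also on the opposite strand, shares 26.6% of the Cxcl11 span and had 158 to 421 reads per library, against 359 to 962 for Cxcl11.

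Their receptor Cxcr3, carried by activated T and NK cells, did separate the genotypes. It had 0.451, 0.476 and 0.742 CPM in WT replicates 1, 2 and 3 against 0.152, 0.218 and 0.398 in KO, all under 1 CPM. Every KO library was below every WT library, with a log2 fold change of -1.12 ± 0.49 (edgeR FDR 1, unadjusted edgeR p 0.0582). Leaving out a single library gave -1.58 to -0.85, and leaving out both WT replicate 3 and KO replicate 1 gave -0.59.

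Cxcr6, a receptor of resident T and NK cells in the liver, had 110, 42 and 65 reads in WT replicates 1, 2 and 3 and 31, 20 and 34 in KO. In CPM these were 1.38, 0.555 and 0.731 against 0.294, 0.15 and 0.410, and every KO library was below every WT library. The log2 fold change was -1.64 ± 0.55, with an unadjusted edgeR p of 0.0215 and an FDR of 1. Fitted values stayed between -2.00 and -1.18 when a library was left out. The span of Cxcr6 lies wholly within that of Fyco1 on the opposite strand, which had 2601 to 6975 reads per library, so part of these few reads may belong to Fyco1. Cxcl16, the membrane-bound ligand of Cxcr6, had 8.47, 11 and 16.6 CPM in WT against 9, 8.58 and 9.68 in KO, with overlap (-0.41 ± 0.27; -0.10 without WT replicate 3).

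Markers of T cells had lower fitted levels in KO beside Cxcr3 and Cxcr6, and those of NK cells less clearly so. The 12 T and NK cell markers summed to 7.82, 4.51 and 7.48 CPM in WT against 4.52, 2.95 and 2.90 in KO. Of these, 11 were fitted below 0 (median -1.07, 0 past edgeR's FDR), and the 5 free of overlap were Cd3d, Cd3e, Cd3g, Trac and Gzmb. The NK genes Ncr1 (-0.50 ± 0.67) and Klrb1c (0.13 ± 0.59) and the cytotoxic genes Gzma (-0.30 ± 0.44) and Prf1 (-0.15 ± 0.73) overlapped, as did Cd4, Cd8a and Cd8b1. No marker of the list was at 0 in any library, and Trac, the constant segment of the T cell receptor alpha chain, averaged 0.531 CPM in WT against 0.167 in KO. Whether lower cell numbers account for the receptor values was not tested.

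Cxcl12, which holds blood-forming cells and lymphocytes in their niches through Cxcr4, was abundant in every tumour. It had 259, 345 and 93.6 CPM in WT replicates 1, 2 and 3 against 106, 152 and 232 in KO. WT replicate 3 and KO replicate 1 were the lowest libraries, and the genotypes overlapped (-0.51 ± 0.51; -0.11 without WT replicate 2, -0.27 without KO replicate 1, -0.88 without WT replicate 3 and -0.85 without KO replicate 3). Cxcr4 ran the other way, with 1.85, 1.24 and 6.15 CPM in WT against 5.50, 3.02 and 2.88 in KO, highest where Cxcl12 was lowest (0.30 ± 0.63; -0.05 without KO replicate 1, -0.07 without WT replicate 2 and 1.30 without WT replicate 3). Ackr3, an atypical receptor that clears Cxcl12, had 0.827, 0.370 and 2.06 CPM in WT against 2.39, 1.24 and 0.929 in KO (0.49 ± 0.68; 0.01 without KO replicate 1 and 1.34 without WT replicate 3). Stellate and fibroblast markers summed to 85.2, 70.2 and 385 CPM in WT against 672, 231 and 272 in KO, and were thus also highest in KO replicate 1 and WT replicate 3.

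Among the remaining CXC ligands, Cxcl13 and Cxcl17 had most of their reads in 1 tumour each. Cxcl13, which guides B cells into follicles through Cxcr5, had 18, 1301 and 188 reads in WT replicates 1, 2 and 3 and 563, 20 and 24 in KO. Its RPKM in the highest library was 109 times that in the lowest, and the log2 fold change of -1.75 ± 1.74 became 0.72 without WT replicate 2. Cxcl17, a mucosal chemokine, had 4, 7 and 341 reads in WT and 49, 18 and 9 in KO, so that WT replicate 3 held most of them (-2.48 ± 1.59; 1.72 without that library). Cxcl14, an epithelial chemokine, had 0.351, 5.80 and 2.47 CPM in WT against 1.95, 1.01 and 1.07 in KO, within the WT range.

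Cxcr5, the receptor for Cxcl13 on B cells, had 0.401, 0.330 and 0.225 CPM in WT against 0.256, 0.211 and 0.145 in KO, with only WT replicate 3 inside the KO range (-0.63 ± 0.44; -1.02 without both WT replicate 3 and KO replicate 1). Ccr6, a receptor of B cells and some T cells, had 29, 14 and 13 reads in WT and 12, 18 and 8 in KO. Its normalized levels of 0.363, 0.185 and 0.146 CPM in WT were all above the 0.114, 0.135 and 0.0965 CPM in KO, although by little (-0.99 ± 0.50; -0.51 without WT replicate 1). Its ligand Ccl20 had 0 reads in WT replicates 1 and 2 and in KO replicate 3, and 8 to 28 elsewhere. B and plasma cell markers had 6 of 7 tested genes lower in KO, 3 of them without overlap (median -1.18, 0 past edgeR's FDR), and summed to 11.8, 8.43 and 61.4 CPM in WT against 20.7, 9.92 and 7.24 in KO. The joining chain gene Jchain alone had 57.0 CPM in WT replicate 3, and the B cell factor Pax5 was at 0 there. The part of these cells in the receptor values was not tested.

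**Figure D4:**
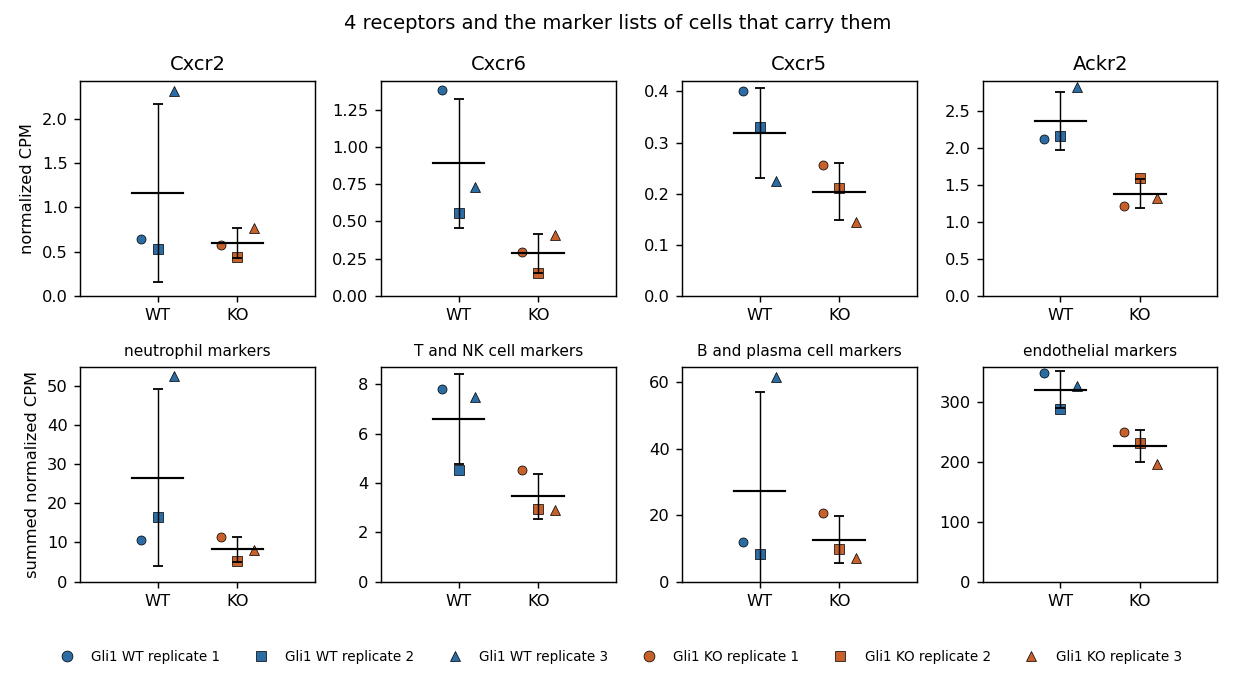
Normalized CPM of Cxcr2, Cxcr6, Cxcr5 and Ackr2 (top) above the summed normalized CPM of the neutrophil, T and NK cell, B and plasma cell and endothelial marker lists (bottom). Each library is 1 point, and bars give the mean and SD of 3 libraries per genotype (the lower SD bar of the WT B cell sum is cut at 0). Which cells carry each receptor in these tumours was not tested. Cxcr6 and Ackr2 do not overlap between WT and KO, nor do the endothelial markers at 288 to 348 CPM in WT against 197 to 250 in KO.

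Among the CC ligands of inflammation, Ccl9 and Ccl6 were the most abundant. Ccl9 (ENSMUSG00000019122, minus strand of chromosome 11, 83572919 to 83578636) had 59.4, 64.9 and 192 CPM in WT replicates 1, 2 and 3 against 96.3, 127 and 91.4 in KO. The KO libraries all lay between the lower WT libraries and WT replicate 3, giving a log2 fold change of -0.01 ± 0.48, and 0.76 without WT replicate 3. Ccl6, which also binds Ccr1, had 7.19, 9.64 and 16.1 CPM in WT against 6.46, 8.09 and 10.0 in KO (-0.42 ± 0.34; -0.04 without WT replicate 3). Ccr1 had 0.526, 0.449 and 3.64 CPM in WT against 1.61, 1.13 and 1.25 in KO, the same arrangement as Ccl9 (-0.21 ± 0.82; 1.45 without WT replicate 3).

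Ccl2, the main attractant of monocytes, had 0.451, 0.291 and 2.39 CPM in WT against 3.32, 0.579 and 1.57 in KO. KO replicate 1 and WT replicate 3 were highest, and the genotypes overlapped (0.80 ± 0.95). Its receptor Ccr2, on monocytes, had 1.54, 0.859 and 6.97 CPM in WT against 6.05, 2.15 and 6.6 in KO (0.66 ± 0.82). Ccl7 (0 to 57 reads), Ccl8 (0 to 68) and Ccl22 (12 to 97), which attract monocytes and T cells, were likewise highest in those libraries. Cx3cr1, a receptor of monocytes and some resident macrophages, had 0.689, 0.568 and 2.54 CPM in WT against 3.71, 2.45 and 2.73 in KO. Only WT replicate 3 reached the KO range, and the log2 fold change of 1.22 ± 0.62 was 2.23 without it (edgeR FDR 1 with all libraries). The long deposited span of Cx3cr1 overlaps several other genes. Its membrane-bound ligand Cx3cl1 had 0.263, 0.528 and 3.32 CPM in WT against 2.47, 1.31 and 0.869 in KO (0.18 ± 0.94; 1.97 without WT replicate 3).

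Markers of resident macrophages had another order over the libraries. The Kupffer cell receptor Clec4f had 29.1, 65.4 and 41.9 CPM in WT against 8.28, 24.5 and 30.0 in KO, and the phagocytic receptor Timd4 had 2.00, 13.0 and 1.97 against 0.351, 0.888 and 1.12. Macrophage and monocyte markers summed to 112, 393 and 292 CPM in WT against 142, 144 and 182 in KO, so WT replicate 1 had the lowest sum. Of these, 11 of 12 were fitted below 0, 2 of them without overlap (Timd4 and Vsig4), and 0 passed edgeR's FDR. The general markers Lyz2 (-0.03 ± 0.40), Ly6c2 (-0.17 ± 0.67) and Itgam (-0.19 ± 0.60) were near 0, and Cd68 was above it (0.20 ± 0.33). WT replicate 2, which had the highest sum, had the lowest Ccl2 and Ccr2 of the 6 libraries.

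Ccl5, a T cell product, had 2.47, 1.19 and 1.63 CPM in WT against 1.39, 1.14 and 1.00 in KO, with overlap (-0.58 ± 0.37; -0.26 without WT replicate 1). Ccr3, the eosinophil receptor, had 1.47, 1.98 and 2.87 CPM in WT against 0.294, 1.99 and 0.519 in KO. KO replicate 2 lay within the WT range and the other KO libraries below it (-1.17 ± 0.73; -2.36 without KO replicate 2). Its ligand Ccl24 had 4 to 61 reads, and its other ligand Ccl11 was counted only in KO replicates 1 (39 reads) and 3 (4 reads). Ccl3 and Ccl4, attractants made by macrophages and T cells, had 13 to 33 and 8 to 56 reads. Ccl17, a ligand of Ccr4, had 0 to 20 reads, Ccl12 0 to 10, and Ccl1 only 2, in KO replicate 3.

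Homeostatic and mucosal ligands were low, and Ccl25 was the only member higher in every KO than in every WT library. Ccl25, known for guiding T cells in thymus and gut through Ccr9, had 2.24, 1.90 and 2.12 CPM in WT against 2.72, 2.61 and 3.19 in KO. The difference was small and even, with a log2 fold change of 0.44 ± 0.25 (edgeR FDR 1) and 0.35 to 0.51 when a library was left out. Ccr9 had 0.200, 0.238 and 0.697 CPM in WT against 0.228, 0.0677 and 0.326 in KO (-0.89 ± 0.75; -0.10 without WT replicate 3). Ccl27a, a skin chemokine that binds Ccr10, had 1.10 to 2.30 CPM with a log2 fold change of 0.00 ± 0.38, and Ccl28, another ligand of Ccr10, had 0 to 29 reads (1.04 ± 1.18; 3.99 without WT replicate 2). Ccr10 itself had 3.24 CPM in WT replicate 1 and 0.581 to 1.51 elsewhere (-0.68 ± 0.74; 0.51 without WT replicate 1), and its span lies within that of Cntnap1, which had 397 to 8697 reads. Ccl19, a ligand of Ccr7, had 9 to 19 reads and Ccl21a had 18 in WT replicate 2 and 0 elsewhere. Copies of Ccl21 and Ccl27 are close paralogs, so reads may be split between them or lost.

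Of the atypical receptors, Ackr2, which scavenges inflammatory CC chemokines, separated the genotypes. It had 169, 164 and 252 reads in WT replicates 1, 2 and 3 and 128, 212 and 110 in KO, or 2.12, 2.17 and 2.83 CPM against 1.22, 1.60 and 1.33. Every KO library was below every WT library once depth was taken into account, with a log2 fold change of -0.78 ± 0.29 (unadjusted edgeR p 0.0313, FDR 1) and -0.89 to -0.63 when a library was left out. Ackr1, a chemokine-binding protein of venules and red cells, had 1.55, 0.806 and 0.978 CPM in WT against 0.380, 0.677 and 1.10 in KO, with overlap (-0.63 ± 0.49; -0.31 without WT replicate 1, -0.32 without KO replicate 1 and -1.07 without KO replicate 3). In the same libraries 6 of 8 endothelial markers had lower fitted levels in KO, 5 of them without overlap, with 0 past edgeR's FDR. The scavenger receptor Stab2 was among them, with 39.0, 48.5 and 51.0 CPM in WT against 29.0, 32.3 and 27.0 in KO, whereas the junction proteins Cdh5 (0.07 ± 0.29) and Pecam1 (0.01 ± 0.32) had values near 0. The part of endothelial cells in the Ackr2 values was not tested.

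Ackr4, which scavenges Ccl19, Ccl21 and Ccl25, had 44.9 to 81.0 CPM and a log2 fold change of -0.19 ± 0.27 (-0.01 without KO replicate 1). Its place as the member with the fourth highest RPKM and its fold change are uncertain. Its deposited span of 42777 bases lies wholly within that of Acad11 on the opposite strand. Ackr4 had 6121, 5866 and 4792 reads in WT and 4725, 10760 and 4682 in KO. Acad11 had 23736, 22675 and 19440 in WT and 18678, 44685 and 17084 in KO, with the libraries in the same order. How many of the Ackr4 reads belong to Acad11 was not tested. The lymphocyte receptor Ccr7 had 0.354 to 1.10 CPM (0.05 ± 0.59), and Xcr1, a marker of cross-presenting dendritic cells, had 18 to 36 reads (-0.31 ± 0.47; -0.05 without WT replicate 2). Its ligand Xcl1 had 4 to 14 reads, Ccr4 had 0 to 8, and Ccr8 had 29 in WT replicate 3 and 0 elsewhere. Dendritic cell markers had 3 of 8 genes lower and 5 higher in KO (median 0.17).

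WT replicate 3 was the highest library for 22 of the 45 tested members (48.9%), against 22.2% of all genes, and WT replicate 1 or 2 was the lowest for 12 and 13 (26.7 and 28.9%, against 16.6 and 20.0%). WT replicate 3 and KO replicate 1 were the 2 highest libraries for 14 members (31.1%, against 15.0% of all genes), among them Ccl2, Ccl7, Ccl8, Ccl22, Cxcl2, Cxcl10, Cxcr4 and Cx3cl1. Without both, 8 members had KO below WT in the 4 libraries left (19.5%, against 18.7% of all genes) and 11 had KO above WT (26.8%, against 17.8%). The 8 were Ackr2, Ccl5, Ccr6, Cxcl1, Cxcl12, Cxcr3, Cxcr5 and Cxcr6. Dropping libraries cannot undo a separation, so the 5 that were lower with all libraries had to be among the 8, and Ccl25 among the 11. The 11 included Ccl25 and, in addition, Ccl2, Ccl3, Ccl9, Ccr1, Ccr2, Cx3cl1, Cx3cr1, Cxcr4 and Ackr3.

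**Figure D5:**
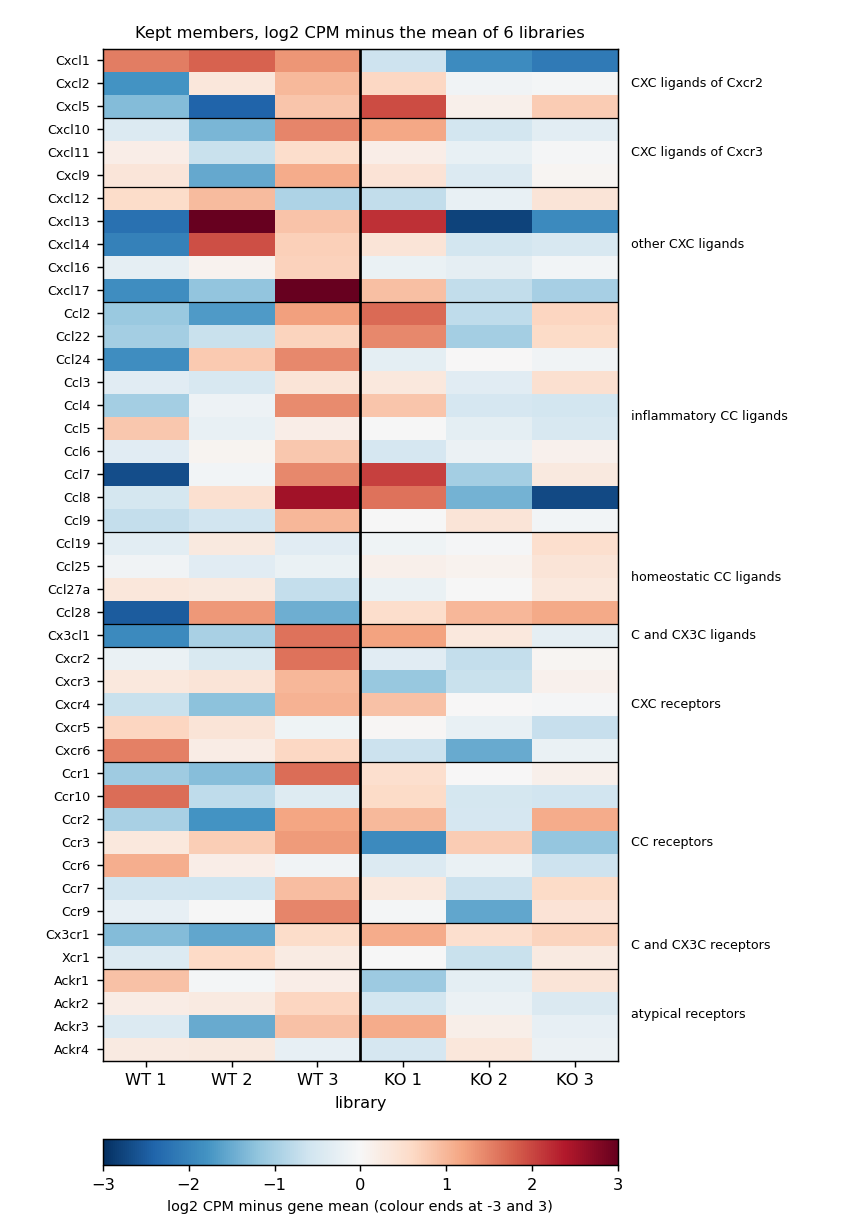
Log2 CPM (prior count 2) of 44 of the 45 tested members in each library minus the mean of the 6 libraries, grouped by role, red above and blue below the mean. The row of Cxcl1 changes colour at the line between the genotypes, while many rows of inflammatory ligands are red in WT replicate 3 and KO replicate 1 and blue in WT replicates 1 and 2.

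Other genes of the pathway were taken from lists chosen by function. Of 18 cytokines and receptors that induce chemokines, 12 could be tested, 10 had lower fitted levels in KO and 0 passed edgeR's FDR (median -0.39). Il1a had 3.41, 4.20 and 10.2 CPM in WT replicates 1, 2 and 3 against 1.33, 1.82 and 2.27 in KO (-1.72 ± 0.48), without overlap. Il1b had 1.40, 6.83 and 12.2 in WT and 1.77, 1.12 and 1.16 in KO (-2.34 ± 0.73), where WT replicate 1 overlapped. These interleukins are strong inducers of Cxcl1 as background knowledge. Tnf stayed under 1 CPM in every library, and Il6, Il17a and Ifng did not pass edgeR's filter on low counts.

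Of 13 NF-kB and STAT pathway factors, 10 had lower fitted levels in KO, 3 without overlap, and 0 passed edgeR's FDR (median -0.36). Nfkbiz, an inducible co-activator of NF-kB, had 20.6, 27.7 and 28.5 CPM in WT against 17.1, 10.3 and 15.4 in KO (-0.84 ± 0.24). Cebpb, a transcription factor of the acute-phase response, had 26.3, 27.3 and 27.2 in WT and 15.2, 21.4 and 22.8 in KO (-0.44 ± 0.19). Both separated the genotypes, whereas the NF-kB subunits Rela (0.08 ± 0.17) and Nfkb1 (-0.11 ± 0.30) did not.

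Among 20 genes that act downstream of the receptors, 16 had lower fitted levels in KO, 3 without overlap, and 1 was higher without overlap (median -0.36, 0 past edgeR's FDR). Pik3r5, a regulator of the leukocyte phosphoinositide kinase, had 1.85, 2.38 and 3.70 CPM in WT against 1.83, 1.47 and 1.28 in KO (-0.79 ± 0.36), and Rgs1, which dampens G protein signals, had 23.9 CPM in WT replicate 3 and 1.21 to 2.29 elsewhere (-2.45 ± 1.12). Of 12 genes for related ligands, other receptors and chemokine-processing enzymes, 8 were lower and 4 higher, with 0 past edgeR's FDR (median -0.29). The neutrophil collagenase Mmp8 had 0.564, 0.476 and 2.35 CPM in WT against 0.218, 0.256 and 0.0965 in KO (-2.55 ± 0.77). The macrophage elastase Mmp12 had 3.78, 1.06 and 3.04 CPM in WT against 4.72, 9.60 and 9.11 in KO, and was the gene of this list with KO above WT in every library (1.57 ± 0.52).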

How the data were processed

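RNA of 6 liver tumours, 3 Gli1 WT and 3 Gli1 KO, was sequenced, and samples were grouped by their titles. Per the file headers, each library has unscaled read counts and RPKM per gene, as deposited by the authors, the latter scaled by the table's length column. HTSeq, TopHat2 2.0.6 and bcl2fastq are listed, with no roles and beside human builds, in the submitters' processing notes, but the identifiers are those of mouse genes. Of 42462 identifiers shared with GENCODE M21, 84.2% had the same start, so coordinates are read as GRCm38. All 60 members were in that annotation, 49 with the same start. Whether counting used strand is not stated by any source used here.

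Differences in counts were fitted in R 4.3.3 by edgeR 4.0.16 (filterByExpr, TMM factors, robust quasi-likelihood test, two-sided, Benjamini-Hochberg over 18359 genes, FDR 0.05). Standard errors are the log2 fold change divided by the root of the F statistic. Alternatives were DESeq2 1.42.0, limma 3.58.1 with voom, upper-quartile or RLE scaling, other filters (none, or a CPM of at least 1 in 3 libraries), a replicate block, a term for whether the description number is low or high, a non-robust fit, FDR 0.1 and leaving out libraries. Scripts were tested on simulated data. Deposited RPKM were used for levels between genes.

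Members, lists and tests were chosen with earlier results of these data known. Values in every library are given for members that had the 2 smallest p or 2 highest RPKM in their role, that were called or did not overlap, and for their receptors. From each pathway list the 2 genes of smallest p are named. 1 member that the rule picks is not reported here by name and is left out of the figures, but is kept in all counts. Other genes named with values were chosen after these were seen. Of 151 list entries, 149 matched by symbol and 2 through the identifier. The hepatocyte (7 of 8 lower in KO, median -0.28), platelet (2 of 4, 0.14), cholangiocyte (5 of 6, -0.34) and stellate lists (0 of 8, 0.99) had 0 genes past edgeR's FDR.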

Additional observations from a re-analysis of the deposited data

How the results depend on the processing

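DESeq2 called 62 genes, 1 of them a member (Cxcl1, log2 fold change -2.94, adjusted p 1.62e-07). In edgeR 0 of each were called at FDR 0.05 and at 0.1. At an unadjusted p under 0.05, edgeR had 3 of 45 members and 665 of 18359 genes. DESeq2 had 6 of 56 members and 1090 of 28057 genes at that threshold. All other alternatives called 0 genes, including each fit without 1 library. The members' median log2 fold change ran from -0.38 to 0.15 over those fits, and 16 members were below 0 among the 24 kept at a CPM of at least 1 in 3 libraries. Of the 33 members whose fold changes were followed, 19 kept their direction under every alternative that gave a value, and 14 changed sign at least once; 13 of those 33 had no value at that CPM minimum, 2 had none without both libraries and Cxcl17 had none by DESeq2. The cause of these sign changes was not tested.

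Sign changes were as follows. Ccl9 was 0.01 with upper-quartile factors and 0.02 without the filter. With limma voom Ccl9 was 0.20, Ccr1 0.42, Cxcl10 0.16 and Cxcl2 0.33. With the replicate block they were 0.22, 0.52, 0.27 and 0.23, and Cxcl9 was 0.04. With the number-range covariate Ccl27a was -0.07, Ccl9 0.32, Ccr1 0.28 and Cxcl2 0.65. Without both WT replicate 3 and KO replicate 1, Ccl27a was -0.15, Ccl6 0.11, Ccl9 0.82, Ccr1 1.29, Cxcl10 0.41, Cxcl11 0.04, Cxcl2 0.31, Cxcl9 0.15 and Cxcr2 0.05, while Ccr10 was -1.49 and Cxcl13 -5.32. Leaving out 1 library gave ranges of -0.27 to 0.18 for Ccl27a, -0.65 to -0.04 for Ccl6, -0.29 to 0.76 for Ccl9, -0.64 to 1.45 for Ccr1, -1.17 to 0.51 for Ccr10, -0.32 to 1.97 for Cx3cl1, -0.79 to 1.14 for Cxcl10, -0.38 to 0.15 for Cxcl11, -4.88 to 0.72 for Cxcl13, -3.41 to 1.72 for Cxcl17, -0.51 to 0.59 for Cxcl2, -0.73 to 0.35 for Cxcl9, -1.31 to 0.03 for Cxcr2 and -0.07 to 1.30 for Cxcr4. KO minus WT differences in the log2 ratios of Cxcl1 to Cxcl2, Cxcr2, Ccl9 and Cxcl12 stayed below 0 when 1 library was left out. For the ratios without overlap, those to Cxcl2, Ccl9 and Cxcl12, no other sign was possible.

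The labels do not say that replicate numbers pair the samples, and correlations over 3 libraries per genotype cannot decide it. Deviations from the group means correlated at -0.29, 0.18 and -0.34 for numbers 1, 2 and 3, and the replicate block called 0 genes and left Cxcl1 at -3.09. Depth limits the 15 members below edgeR's filter on low counts. Without that filter 57 members were tested, and 56 by DESeq2, with 0 and 1 called.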
